A study of Rattus norvegicus with 6 samples.

Results

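The comparison of total liver RNA between rats fed a Western diet (WD) and rats fed a control diet (CD) covered 10201 loci with a gene symbol. They were chosen from the 33022 loci of the deposited table, 32158 of which carried a symbol, by a successful estimate in every library and a level that averaged 1 FPKM or more across the 6 libraries. FPKM, fragments scaled to transcript length and library size, gives a level per length. Both groups were male obesity-prone Sprague Dawley rats of 160 to 190 g at the start, an outbred line bred to gain weight on energy-dense food, with no transgene and no drug. The CD rats ate TD 08485, low in fat, and the WD rats ate TD 88137, rich in milk fat and sucrose with added cholesterol, for 2 wk, all having eaten the CD first. Both were fasted overnight and refed their own diet for 1 h before the left liver lobe was taken. The RNA of 3 rats was combined for each diet, so each diet is 1 library of total RNA and no value has a replicate. The 4 other libraries, made from a light fraction (mRNAs with few ribosomes) and a heavy fraction (mRNAs with many) of a sucrose gradient, were pools of 3 rats per diet as well and are quoted beside named genes as other RNA of the same groups, not as replicates.

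The liver meets a meal by switching between fuels. During fasting it oxidizes fatty acids and makes ketone bodies under the nuclear receptor PPAR-alpha, and after carbohydrate it turns to glycolysis, glycogen and new fatty acids under insulin, SREBP1c and ChREBP. It also makes bile acids from cholesterol, clears drugs through cytochromes P450 and conjugating enzymes, and secretes most plasma proteins. The labelled tissue was met by its markers, with Alb at 47108 FPKM in CD and 43676.6 FPKM in WD and Ttr, the carrier of thyroxine and retinol-binding protein, at 11471.7 and 8557.8 FPKM. All 12 hepatocyte markers were compared, 5 higher and 7 lower in WD, and none differed by 1.5-fold. In bulk tissue, fewer cells of a type and less RNA per cell cannot be told apart.

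The fragments behind a value could be inferred, from the common step of a locus's values in the 6 libraries, at 8149 loci (79.9%). These held 355634 fragments in the CD and 335834 in the WD library, with 26 over both at the median locus. A 95% exact binomial (Clopper-Pearson) interval of the WD to CD ratio follows from such numbers. It compares 2 libraries, not 2 diets, and covers counting error only. Of the 8149 loci, the interval lay above 1 at 294 (3.61%) and below 1 at 311 (3.82%), 7.42% in all. By size alone, 1804 loci (17.7%) were at least 1.5-fold higher and 1738 (17%) at least 1.5-fold lower in WD on FPKM + 0.1, 34.7% either way. Among the 4794 loci with at least 20 fragments, 459 (9.57%) were at least 1.5-fold higher and 470 (9.8%) at least 1.5-fold lower, 19.4% either way.

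The share beyond 1.5-fold depended on the fragments behind a locus. It was 58.8% of the 3355 loci with 1 to 19 fragments and 24.55% of the 3364 with 20 to 99. It was 8.66% of the 1028 loci with 100 or more but under 300 fragments and 3.48% of the 402 with at least 300. The share with an interval that excludes 1 went the other way, from 2.95% at the shallowest loci to 31.3% at the deepest. Differences of 1.5-fold were thus most common where fragments were fewest, and intervals that exclude 1 where they were most numerous. The median log2 change of all loci was 0.02, with 5214 higher, 4796 lower and 191 equal.

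**Figure D1:**
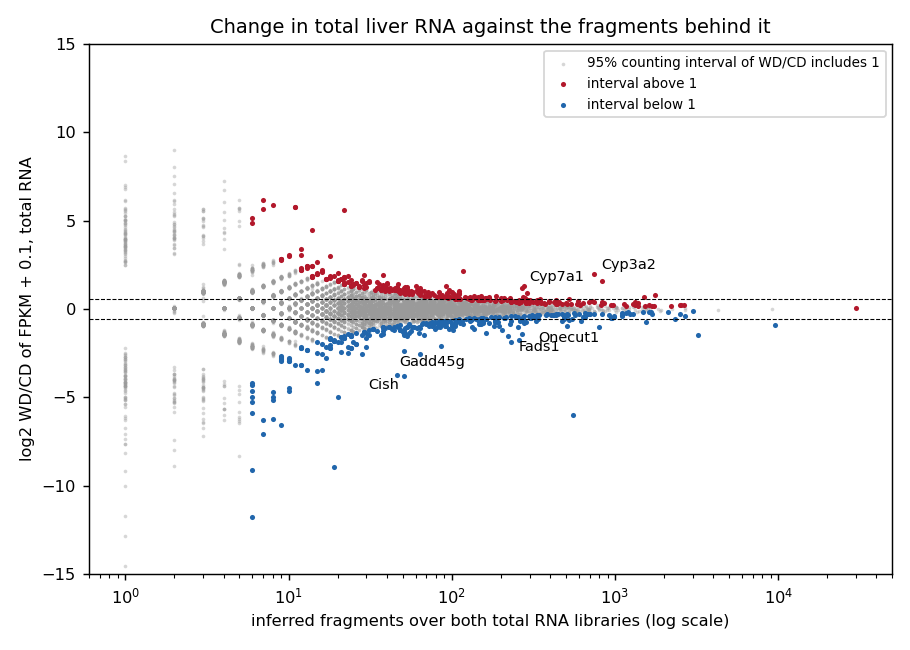
The log2 WD to CD ratio of FPKM + 0.1 in total RNA (vertical axis) is plotted against the inferred fragments over both libraries (horizontal log axis), 1 point per locus, with dashed lines at 1.5-fold. Points spread widely at few fragments and close in on 0 at many, and the colored loci, whose 95% counting interval lies above 1 (red) or below 1 (blue), form the 2 edges, with Cyp3a2 far above and Cish far below.

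Single genes were taken from the 2374 loci with a symbol of their own, a mean of at least 10 FPKM in total RNA and at least 30 fragments, as the 15 highest and the 15 lowest changes. All 30 have an interval that excludes 1, which their choice by size and depth favors. Highest was Cyp3a2, a cytochrome P450 that oxidizes drugs and steroids, at 229.7 FPKM in CD and 897.9 FPKM in WD (157 and 587 fragments, ratio 3.91, interval 3.27 to 4.69). It was higher in WD in the other RNA too, at 361.7 against 2126.1 FPKM in the light and 514.9 against 1936.6 FPKM in the heavy fraction. Its locus (Rnor_6.0 chromosome 12, 11655401 to 11733136) overlaps that of LOC100910877, which stands outside the naming rule, was picked after its values were seen and had 100.2 and 304.6 FPKM (213 and 619 fragments). Reads of near-identical Cyp3a genes may be shared between such loci. Cyp3a18, of the same family, was level at 191.9 and 187.4 FPKM, and Cyp3a23/3a1 had 2 and 7 fragments.

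Drug-metabolizing P450 genes of this family are known targets of the xenobiotic receptor PXR, which binds direct repeats of a hexamer. A pair of AGTTCA with 3 bases between, on either strand, was searched in 33469 RefSeq promoters of the rat assembly GRCr8, each from 250 bases before to 50 bases after a gene's start, and was found in 2 (0.00598%). Cyp3a2 held one of them, on the strand opposite to the gene, beginning 131 bases before the start. The window below shows it in capitals and is the gene's own strand (GRCr8 chr12:14343959-14344003, minus strand).
Cyp3a2: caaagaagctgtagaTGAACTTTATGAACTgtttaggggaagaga
The search was prompted by the family of Cyp3a2, and other hexamers were not searched. The rarity of the match therefore does not bear on whether PXR acts on Cyp3a2, which was not tested. A match is a description of letters, and binding was not measured. Nr1i2, the gene of PXR, had 31.96 FPKM in CD and 23.13 FPKM in WD (ratio interval not excluding 1), and Nr1i3, the gene of the related receptor CAR, 29.68 and 34.1 FPKM.

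The other high genes covered several functions. Cyp7a1, the rate-limiting enzyme of bile acid synthesis, was at 22.2 FPKM in CD and 50.6 FPKM in WD (85 and 185 fragments, interval of the ratio 1.75 to 2.98). Both fractions showed the same order, with 30.6 against 58.8 FPKM in the light and 28.35 against 56.6 FPKM in the heavy fraction. Ppp1r3c, a scaffold that brings protein phosphatase 1 to glycogen, was at 28.2 and 69.0 FPKM (83 and 194 fragments, 1.88 to 3.20) and was higher in both fractions. Gstt3, a glutathione transferase, had 7.73 and 18.5 FPKM (14 and 32 fragments), higher in the heavy but not in the light fraction. Cyp7a1 and Ppp1r3c thus had the same order in all 3 kinds of RNA. The other 11 genes were Tmem98, Ppcs, Gatad1, Pfdn5, Clic2, Ano10, Apoa1bp, Clns1a, Snapin, Zc3h15 and Sec23a, each with between 30 and 60 fragments. Pfdn5, a subunit of the prefoldin chaperone, was higher in total RNA (35.6 and 86.95 FPKM) but lower in the light (194.1 and 79.9 FPKM) and heavy (336 and 243 FPKM) fractions. Of the 15 highest genes, 6 were also higher in both fractions. The share of all loci with the same order in both fractions was not computed, so this count has no background beside it.

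**Figure D2:**
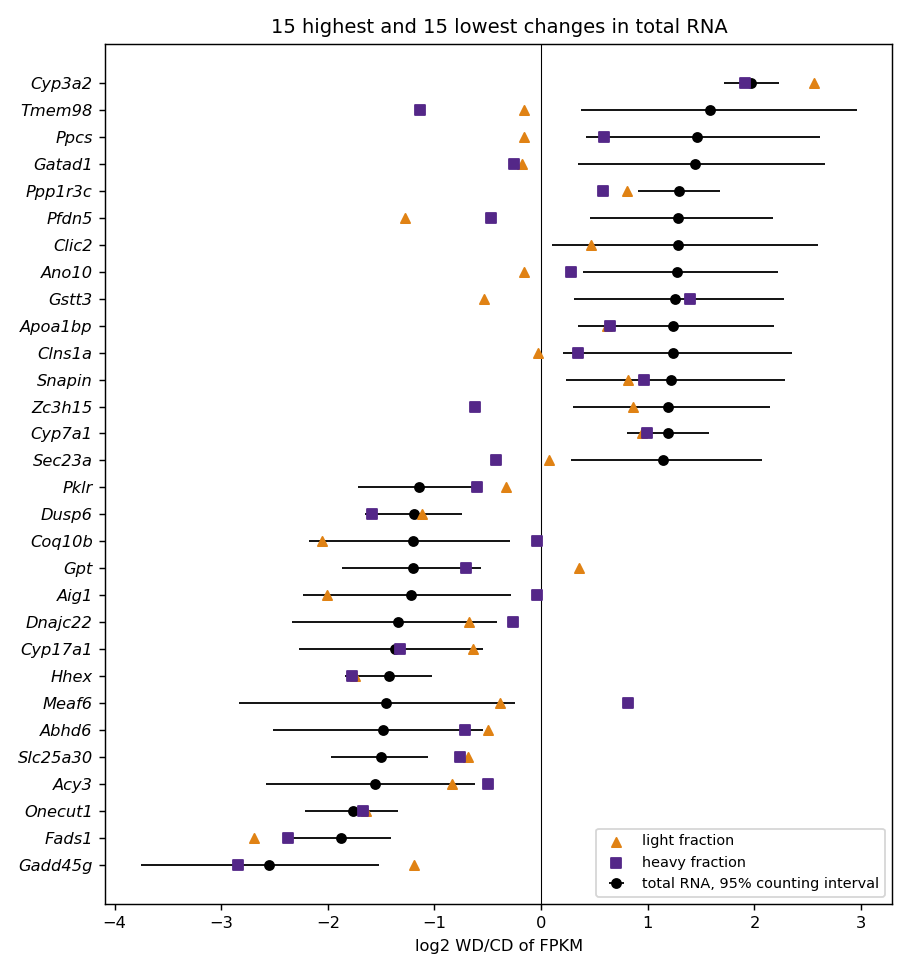
The log2 WD to CD ratio of FPKM (horizontal axis) is shown for the 15 highest and 15 lowest genes in total RNA (black points with 95% counting intervals), with the light (triangles) and heavy (squares) fraction ratios where both diets were above 0. Fraction markers lie on the side of the black point in both fractions for 6 of the 15 highest and 13 of the 15 lowest genes, counting Clic2, whose heavy marker is missing because CD was at 0. The same share over all loci was not computed.

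Lowest was Gadd45g, a growth arrest and stress gene, at 54.1 FPKM in CD and 9.26 FPKM in WD (55 and 9 fragments, ratio interval 0.0743 to 0.349). Both fractions had less of it in WD. Fads1, the delta-5 desaturase of polyunsaturated fatty acids, was at 50.0 FPKM in CD and 13.65 FPKM in WD, at 70.8 and 10.98 FPKM in the light fraction and at 67.1 and 12.9 FPKM in the heavy fraction. Onecut1 (HNF6), a hepatocyte and bile duct transcription factor, was at 83.1 and 24.4 FPKM (203 and 57 fragments, 0.215 to 0.396). Hhex, a homeobox factor of liver development, was at 111.5 and 41.6 FPKM (199 and 71 fragments, 0.280 to 0.492). Both transcription factors were at least 1.5-fold lower in each fraction as well. Slc25a30, a mitochondrial carrier, was at 90.4 and 31.9 FPKM (166 and 56 fragments). Dusp6, a phosphatase that turns off ERK, was at 49.0 and 21.5 FPKM (143 and 60 fragments), and Pklr, liver pyruvate kinase, at 54.5 and 24.6 FPKM (95 and 41 fragments). Gpt (alanine aminotransferase), Cyp17a1 (steroid 17-hydroxylase), Abhd6 (monoacylglycerol lipase), Coq10b, Acy3, Aig1, Dnajc22 and Meaf6 made up the rest, with 31 to 102 fragments each. Of the 15 lowest genes, 13 were lower in both fractions, the exceptions being Gpt in the light and Meaf6 in the heavy fraction. Aig1 and Coq10b are counted among the 13, although each had as many fragments in WD as in CD in the heavy fraction (6 and 10). As for the highest genes, the share of all loci lower in total RNA and in both fractions was not computed.

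The bounds that Cufflinks gives for each value are wide, at the least 72.8% of the value in total RNA, and were apart between the diets at 2 of 9490 loci above 0 in both. These are Cish and LOC500035, both picked after their values were seen. LOC500035 was at 80.9 and 5.90 FPKM (43 and 3 fragments) and was not lower in the heavy fraction. Cish, a feedback inhibitor of growth hormone and cytokine signaling, was at 14.1 FPKM in CD and 0.924 FPKM in WD (48 and 3 fragments). In the light fraction it was at 21.55 and 0.991 FPKM and in the heavy fraction at 24.1 and 1.36 FPKM, so the order was the same in each. Cish is a known target of STAT5, and the letters TTCCNGGAA, which 1.27% of the promoters hold on either strand, occur in its promoter at 241 and at 119 bases before the start. Ppp1r3c, higher in WD, also holds them, at 233 bases before its start. The nearer match is shown in capitals (GRCr8 chr8:116850835-116850873, plus strand).
Cish: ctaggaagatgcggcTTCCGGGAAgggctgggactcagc
Other growth hormone targets were closer between the diets. Socs2 was at 84.6 and 73.45 FPKM (118 and 98 fragments), Igf1 at 470.5 and 477.2 FPKM and Igfals at 135.7 and 127.7 FPKM. Ghr, the receptor, was at 332.0 and 307.1 FPKM, and of the 15 genes of insulin, IGF and growth hormone signaling compared, 8 were higher and 7 lower in WD with a median log2 change of 0.02.

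Functional groups were described with 39 gene lists and 11 marker lists, 785 compared symbols in all, by the count of members higher and lower and the median log2 change beside the 0.02 of all loci. The lists were chosen with earlier results of these data known.

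The genes of fasting fuel use were lower in WD. Of 16 genes of ketogenesis and the PPAR-alpha response, 2 were higher and 14 lower, with a median log2 change of -0.50, and the ratio interval lay below 1 for 7 of 13 (3.82% of all loci) and above 1 for none (3.61%). Several of these genes are deep, and of all loci with at least 300 fragments 31.3% had an interval that excludes 1 in either direction. Ehhadh, a peroxisomal enzyme of fatty acid oxidation, was at 298.5 FPKM in CD and 179.4 FPKM in WD (990 and 569 fragments) and lower in both fractions. Pdk4, which holds pyruvate dehydrogenase inactive, was at 36.3 and 19.3 FPKM (57 and 29 fragments, 0.328 to 0.846). The acyl-CoA thioesterases Acot2 and Acot4 were at 10.05 and 4.205 FPKM and at 24.97 and 12.7 FPKM. Cyp4a1, an omega-hydroxylase of fatty acids and a classic PPAR-alpha target, was at 402.6 and 204.0 FPKM, without fragment numbers. Fgf21, a hormone of fasting and of sugar intake, was at 55.5 and 27.9 FPKM, with 27 and 13 fragments and an interval from 0.239 to 1.01 that includes 1. Ppara itself was level at 57.15 and 58.6 FPKM.

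Mitochondrial and peroxisomal beta-oxidation had 5 genes higher and 19 lower of 24, a median log2 change of -0.26. No interval of the 17 available lay above 1 and 6 lay below, against 3.61% and 3.82% of all loci. Many of these genes are deep, and of all loci with at least 300 fragments 31.3% had an interval that excludes 1 in either direction. The share was 14.9% of those with 100 or more but under 300. Cpt1a, which admits fatty acids to mitochondria, was at 82.0 and 59.6 FPKM (387 and 269 fragments, 0.620 to 0.851). Etfb, which passes the electrons on, was at 220.2 and 126.8 FPKM (178 and 98 fragments) and Acads, the short-chain dehydrogenase, at 81.0 and 50.2 FPKM (145 and 86 fragments). The differences in this group were thus below 2-fold for each gene named. The tricarboxylic acid cycle was not lower as a group, with 13 of 21 genes higher and a median of 0.06, although Mdh2, malate dehydrogenase, was at 145.5 and 106.3 FPKM (186 and 130 fragments, 0.580 to 0.919).

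The lower Fads1 stood among lower desaturases and elongases. Of 13 such genes, 10 were lower and 3 higher in WD, with a median of -0.26. Fads2, the delta-6 desaturase, was at 130.7 and 65.5 FPKM (173 and 83 fragments, 0.381 to 0.655), and Elovl2, which elongates long polyunsaturated chains, at 43.9 and 26.9 FPKM (181 and 106 fragments). Scd1, the delta-9 desaturase that makes oleate, was at 423.6 and 268.4 FPKM. All 3 were lower in both fractions. Elovl5 was at 215 and 177.2 FPKM, with an interval that reaches 1.01, and Fads6 was higher at 12.6 and 18.9 FPKM (23 and 33 fragments, interval including 1).

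New fatty acid synthesis was divided. Fasn, the synthase, was at 18.9 and 21.6 FPKM (193 and 211 fragments) and Srebf1, the gene of SREBP1c, at 27.97 and 35.1 FPKM. Mlxipl, the gene of ChREBP, was at 12.8 and 19.4 FPKM, and Thrsp at 67.0 and 70.1 FPKM. Me1, malic enzyme, a source of NADPH, was at 69.8 and 41.6 FPKM (121 and 69 fragments, 0.437 to 0.808). Acaca, acetyl-CoA carboxylase, was at 21.3 and 14.95 FPKM. The list held 6 higher and 8 lower of 14 genes and its median was -0.21. Cholesterol synthesis, given only for reference, had 1 higher and 17 lower of 19 genes and a median of -0.49.

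**Figure D3:**
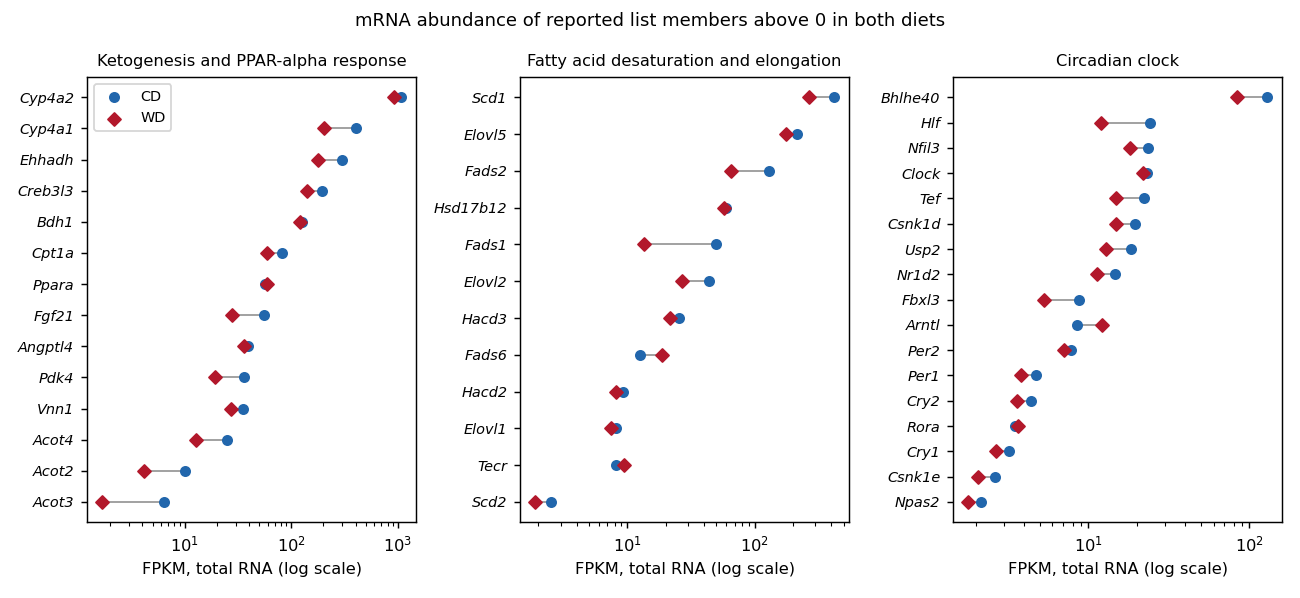
FPKM in total RNA of CD (circles) and WD (diamonds) is plotted on a log axis for the reported members above 0 in both diets of 3 lists, ketogenesis and the PPAR-alpha response, fatty acid desaturation and elongation, and the circadian clock. Diamonds lie left of circles for most members, with Fads1 (50.0 and 13.65 FPKM) the widest gap in the middle panel, and Fads6 and Arntl among the few on the right.

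Genes that handle glucose and fructose were lower at several steps. Besides Pklr, Pfkfb1, the liver enzyme that sets fructose 2,6-bisphosphate, was at 39.3 FPKM in CD and 19.9 FPKM in WD (62 and 30 fragments, 0.316 to 0.794). Ldha, lactate dehydrogenase, was at 235.7 and 171.9 FPKM (377 and 263 fragments). Fbp1, of gluconeogenesis, was the one gene of the list with an interval above 1, at 141.2 and 183.5 FPKM (202 and 251 fragments, 1.08 to 1.57), while Pck1 was at 258 and 215.3 FPKM with an interval that includes 1. The whole list had 8 higher and 15 lower of 23. Of its 15 intervals, 1 lay above 1 (3.61% of all loci) and 4 lay below (3.82%). Of all loci with at least 300 fragments, as Ldha has, 31.3% had an interval that excludes 1 in either direction. In fructose metabolism, Khk, the ketohexokinase that phosphorylates fructose, was at 68.3 and 45.4 FPKM (96 and 61 fragments, 0.474 to 0.925). Slc2a5, a fructose transporter, was at 10.7 and 3.255 FPKM without fragment numbers. In the glycogen list, with 6 higher and 5 lower of 11, Ppp1r3c was the only gene whose interval, available for 7, lay above 1. None of the 7 lay below 1, and the shares of all loci were 3.61% above and 3.82% below. Gyg1, the glycogenin that primes glycogen, was at 2.502 and 4.292 FPKM and Ugp2, which makes UDP-glucose, at 132.4 and 175.7 FPKM, and Gbe1, the branching enzyme, was at 307.1 and 239.8 FPKM, all without fragment numbers. Gys2, the liver synthase, was at 22.35 and 20.7 FPKM, Pygl, the phosphorylase, at 115.3 and 114.1 FPKM and Ppp1r3b at 169.5 and 177.0 FPKM.

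Around lipid droplets, genes of both directions were found. G0s2, an inhibitor of the lipase ATGL, was at 235.3 FPKM in CD and 351.7 FPKM in WD (142 and 203 fragments, 1.20 to 1.87). Abhd5, the co-activator of the same lipase, was at 29.6 and 16.1 FPKM (96 and 50 fragments, 0.379 to 0.774) and Fitm2, of droplet budding, at 34.0 and 23.4 FPKM. The inhibitor was thus higher and the co-activator lower in total RNA. Pnpla2, the gene of the lipase itself, was listed at 0 in all 6 libraries. Echs1 of beta-oxidation and Tpi1 of glycolysis were listed at 0 in all 6 as well, so a listed 0 may not mean that an mRNA is absent. G0s2 was higher in the light (266.7 and 328.9 FPKM) but not in the heavy fraction (364.5 and 343.1 FPKM), and Abhd5 was lower in both. Of 23 lipoprotein and lipid uptake genes, 9 were higher and 14 lower, with a median of -0.07 that turns to 0.03 when the libraries are rescaled to equal sums. Apoa1 was at 366.2 and 265.9 FPKM (288 and 200 fragments) but higher in the light fraction, at 245.5 and 626.2 FPKM. Its span is also that of AABR07070085.1, with 9038.6 and 7581.2 FPKM (718 and 576 fragments), and reads may be shared between the loci. Fabp1, the fatty acid binding protein of the liver, was at 4731.8 and 3646.2 FPKM (1540 and 1135 fragments, 0.713 to 0.833). Apoe was level at 2101 and 2003.9 FPKM (2222 and 2027 fragments, 0.898 to 1.01).

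In bile acid synthesis, Cyp7a1 was higher while Cyp8b1, the sterol 12-hydroxylase, was lower at 281.6 and 212.3 FPKM (570 and 411 fragments, 0.663 to 0.857) and was lower in both fractions. Slc27a5, the bile acyl-CoA synthetase, was at 120.2 and 95.4 FPKM (291 and 221 fragments). The canalicular pumps Abcb11 and Abcc2 were at 157.2 and 141.4 FPKM (869 and 748 fragments, 0.815 to 0.994) and at 181.7 and 160.1 FPKM (1147 and 967 fragments, 0.808 to 0.961). These differences are small and show only because of the depth of the 2 genes.

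The phase I list of drug metabolism held large differences both ways, with 18 higher and 13 lower of 31 genes and a median of 0.07. Its summed level was 6676.3 FPKM in CD and 8823.7 FPKM in WD. Cyp2c23, an arachidonic acid epoxygenase, was at 302.0 and 483.4 FPKM (595 and 911 fragments, 1.44 to 1.78), and Cyp1a2 at 184.8 and 240.9 FPKM (369 and 460 fragments, 1.134 to 1.499). Cyp2c22 was at 766.6 and 1398.1 FPKM, without fragment numbers. Por, the reductase that feeds electrons to every microsomal P450, was lower at 47.3 and 24.5 FPKM (121 and 60 fragments, 0.374 to 0.712). Cyp2d4 was at 22.45 and 11.15 FPKM (40 and 19 fragments), and Cyp2e1 was at 1356.8 and 1533.5 FPKM. The male-specific Cyp2c11 was at 535.2 and 475.4 FPKM. Among conjugating enzymes, Ugdh, which makes UDP-glucuronate, was at 77.6 and 102.3 FPKM (188 and 237 fragments) and Gstm1 at 1209.2 and 1398.2 FPKM (1265 and 1399 fragments, 1.07 to 1.25). The list of 24 conjugating genes had 13 higher and 11 lower in WD. Its lowest was Gstp1, with a log2 change of -1.29 and an interval that includes 1. Of the 17 conjugating genes with an interval, 5 lay above 1 (3.61% of all loci) and none below (3.82%). Of all loci with at least 300 fragments, as Gstm1 and Ugdh have, 31.3% had an interval that excludes 1 in either direction. Among the 5, Gsta3 at 1.89 and 3.87 FPKM rests on 22 and 43 inferred fragments, which may be a multiple of the true numbers. In the NRF2 and antioxidant list, 15 of 22 were higher, Akr7a3, an aldehyde reductase, at 12.4 and 25.9 FPKM (15 and 30 fragments), Prdx6 at 84.3 and 113.4 FPKM and Gclc, of glutathione synthesis, at 75.6 and 93.5 FPKM. Nqo1, a defining NRF2 target, had 4 and 1 fragments, and Osgin1 was lower at 72.3 and 39.8 FPKM (150 and 79 fragments, 0.414 to 0.728).

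**Figure D4:**
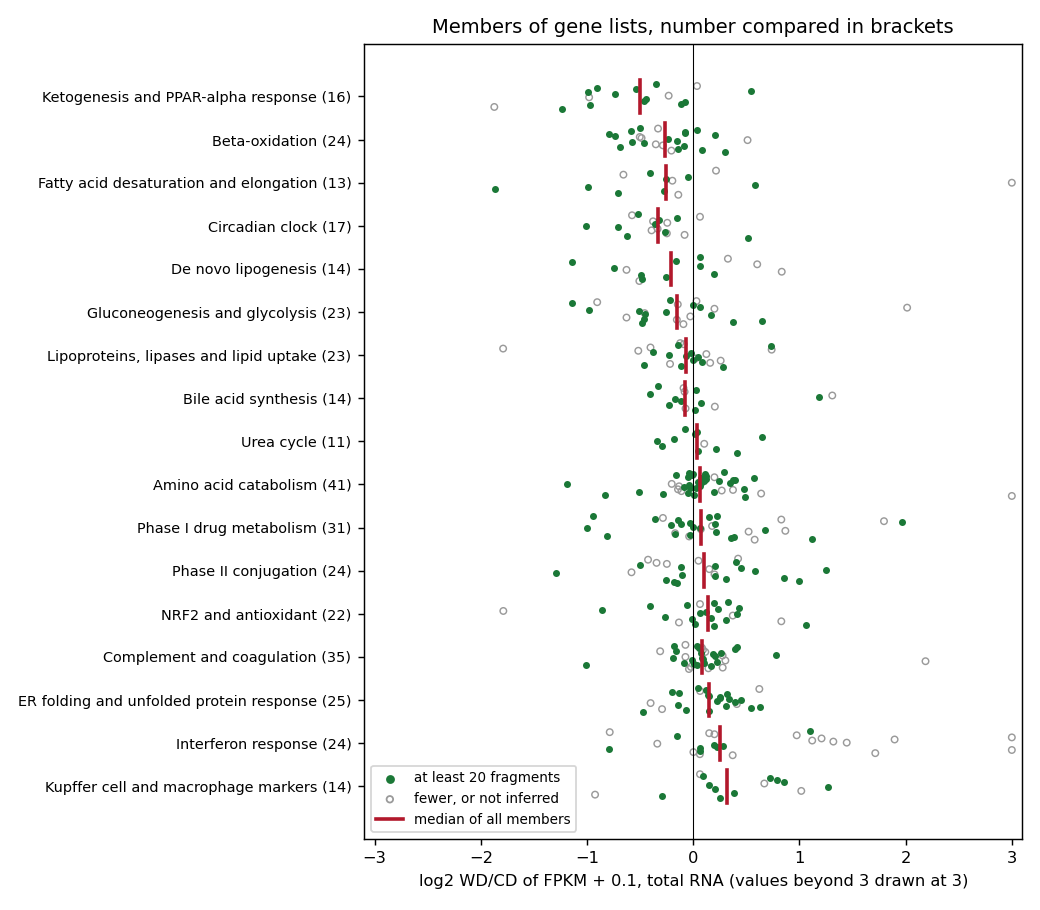
Each point is 1 gene at its log2 WD to CD ratio of FPKM + 0.1 in total RNA (horizontal axis) for 17 lists, filled where at least 20 fragments stand behind it, and the red bar is the median over all members compared. The medians of the lists of ketogenesis and PPAR-alpha response (-0.50) and circadian clock (-0.34) lie farthest left, and those of interferon response (0.25) and Kupffer cell markers (0.32) farthest right.

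Genes of the circadian clock were mostly lower, 15 of 17, with a median of -0.34. Each clock gene has a daily rhythm in liver that feeding times can shift. Bhlhe40 (Dec1), a clock repressor, was the only member whose interval excluded 1, at 129.8 FPKM in CD and 84.5 FPKM in WD (323 and 201 fragments, 0.543 to 0.778). An interval was available for 12 members, and of all loci 7.42% had one that excludes 1. Hlf, of the clock-output PAR bZIP family, was at 24.19 and 11.98 FPKM (19 and 9 fragments) and Tef, of the same family, at 22.25 and 14.9 FPKM. Per2 was at 7.83 and 7.04 FPKM, and Arntl (Bmal1), the activator of the loop, was at 8.52 and 12.2 FPKM (27 and 37 fragments, interval including 1). In the light fraction the list's median was -0.35 and in the heavy fraction -0.03.

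Among immediate-early and MAPK feedback genes, phosphatases were lower, Dusp6 as given above and Dusp1 at 66.5 and 33.7 FPKM (132 and 64 fragments, 0.370 to 0.688), with Dusp1 lower in both fractions too. The primary factors were level, Jun at 23.6 and 22.5 FPKM (78 and 71 fragments) and Egr1 at 5.67 and 5.93 FPKM (19 and 19 fragments). Over the list of 25 genes, 13 were higher and 12 lower, 6 of 23 intervals lay below 1 (3.82% of all loci) and none above. Of all loci with 100 or more but under 300 fragments, as Dusp6 and Dusp1 have, 14.9% had an interval that excludes 1 in either direction. In each fraction 6 of the 25 were higher, with medians of -0.56 in the light and -0.72 in the heavy fraction. In the integrated stress response list, Trib3, a pseudokinase that inhibits Akt, was at 10.6 and 2.64 FPKM (21 and 5 fragments, 0.0733 to 0.678) and Trib1 at 28.6 and 13.9 FPKM (58 and 27 fragments). Phgdh, of serine synthesis, was at 2.73 and 9.70 FPKM (5 and 17 fragments), and Slc3a2, a subunit of amino acid exchangers, at 67.0 and 93.7 FPKM (142 and 190 fragments, 1.12 to 1.75). The list's lead regulator Atf4 was at 31.1 and 35.55 FPKM, with an interval that includes 1. Trib3 was not lower in either fraction, at 11.8 and 13.2 FPKM in the light and 32.5 and 33.3 FPKM in the heavy fraction.

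Endoplasmic reticulum folding genes were slightly higher. Of 25 genes, 18 were higher and 7 lower, with a median of 0.15, and 9 of 22 intervals lay above 1 and 1 below, against 3.61% and 3.82% of all loci. Many of these genes are deep, and of all loci with at least 300 fragments 31.3% had an interval that excludes 1 in either direction. Hspa5 (BiP), the main lumenal chaperone, was at 284 FPKM in CD and 331.8 FPKM in WD (767 and 857 fragments, 1.06 to 1.29). P4hb, a disulfide isomerase, was at 449.8 and 536.6 FPKM (1177 and 1343 fragments, 1.102 to 1.291). Hyou1 was at 50.3 and 68.9 FPKM (258 and 338 fragments, 1.16 to 1.62) and Dnajb9 at 22.3 and 34.45 FPKM (44 and 65 fragments). Dnajb9 is the only gene of the list at 1.5-fold or more with at least 20 fragments. The sensor Atf6 was lower at 20.1 and 14.5 FPKM (103 and 71 fragments, 0.525 to 0.985), and Xbp1 was level at 254.3 and 262.8 FPKM. Heat shock chaperones, mitochondrial ones included, had 10 higher and 8 lower of 18.

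Many of these genes are known to carry endoplasmic reticulum stress elements, and 19 of the 25 had a RefSeq promoter. The element CCAAT, then any 9 bases, then CCACG, on either strand, was in 7 of the 19 and in 0.0657% of all promoters. Of these 7, 4 were higher (Calr, Dnajc3, Hspa5, Xbp1) and 3 lower (Canx, Creld2, Ero1lb) in WD. Intervals lay above 1 for 3 of the 7 and below 1 for none. The second element, ATTGG and CCACG with 1 base between, was in 3 of the 19 and in 0.0508% of all promoters, and the 3 genes, Dnajb11, Herpud1 and Hyou1, were higher in WD with intervals above 1. Intervals lay above 1 for 9 of 22 in the whole list and for 3.61% of all loci, so a difference by motif cannot be read from these few genes. Matches of different motifs overlapped in 1 promoter of all those searched. The windows below, each on the strand of its gene in GRCr8, show 1 match per gene in capitals for 3 genes of the first and 3 of the second element, at chr3:38452958-38453006, chr14:84604543-84604591, chr15:102432519-102432567, chr11:91672785-91672825, chr19:10614806-10614846 and chr8:53602779-53602819. In Hyou1 the letters stand on the opposite strand, and the nearer of 2 matches is shown.
Hspa5: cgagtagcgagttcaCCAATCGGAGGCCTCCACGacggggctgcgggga
Xbp1: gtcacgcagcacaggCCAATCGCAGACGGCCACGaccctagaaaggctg
Dnajc3: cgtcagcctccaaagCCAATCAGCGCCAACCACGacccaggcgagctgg
Dnajb11: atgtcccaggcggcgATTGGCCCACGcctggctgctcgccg
Herpud1: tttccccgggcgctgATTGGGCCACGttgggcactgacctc
Hyou1: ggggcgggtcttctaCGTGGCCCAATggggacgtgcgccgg
Dnajb11 was at 35.5 and 51.9 FPKM (70 and 98 fragments), Herpud1 at 105.5 and 138.2 FPKM (198 and 248 fragments) and Dnajc3 at 148.6 and 183.8 FPKM (268 and 317 fragments).

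Interferon-stimulated genes were higher in number, from few fragments. Of 24 genes, 20 were higher and 4 lower, with a median of 0.25, and 10 were at least 1.5-fold higher, against 17.7% of all loci. Of all loci with 1 to 19 fragments, 58.8% differed by 1.5-fold in either direction. Only 8 of them had at least 20 fragments, of which 6 were higher and 2 lower. Intervals lay above 1 for 3 of 16 (3.61% of all loci) and below 1 for none. Usp18, which removes ISG15 from proteins, was at 8.47 FPKM in CD and 18.3 FPKM in WD (15 and 31 fragments, 1.13 to 4.31), at 4.13 and 8.735 FPKM in the light and at 34.6 and 68.4 FPKM in the heavy fraction. Oasl, of the oligoadenylate synthetase family, had 4 and 15 fragments. Ifit1, a sensor of foreign RNA, was listed at 0 in all 3 CD libraries and had 5.39 FPKM (11 fragments) in WD total RNA, 8.19 FPKM in the light and 7.18 FPKM in the heavy fraction. Oas1a was at 8.89 and 19.45 FPKM and Mx2, a dynamin-like antiviral protein, at 4.81 and 12.15 FPKM, both without fragment numbers and both higher in each fraction. Isg15, a ubiquitin-like protein of this response, had 4 and 3 fragments. The list's median was 1.06 in the light and 0.79 in the heavy fraction, where the medians of all loci were 0.02 and -0.02.

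The core of the interferon-stimulated response element, TTTC and TTTC with any 2 bases between on either strand, was in 11 of 17 of these genes with a promoter and in 3.92% of all promoters. Of the 11, 10 were higher and 1, Tap1, was lower in WD, and no interval among them excluded 1. The windows of 4 are shown with the match in capitals, on the strand of the gene, at GRCr8 chr1:241527267-241527306, chr1:205800068-205800107, chr12:41330416-41330455 and chr12:47383312-47383351. In Oas1a the letters stand on the opposite strand, where 2 overlapping matches lie, and the one nearer the start is shown.
Ifit3: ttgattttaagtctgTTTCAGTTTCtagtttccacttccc
Irf7: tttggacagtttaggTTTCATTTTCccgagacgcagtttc
Oas1a: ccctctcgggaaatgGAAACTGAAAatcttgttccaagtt
Oasl2: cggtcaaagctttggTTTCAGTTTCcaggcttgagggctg
Ifit3 is among the 10 counted as higher, although it had 10 fragments in each diet and differs by the worth of a fragment alone. Irf7 had 18 and 21 fragments and Oasl2 had 3 and 7.

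Markers of Kupffer cells and macrophages, the resident phagocytes of liver, were also higher in number in total RNA. Of 14 compared, 12 were higher and 2 lower, and their sum was 199.1 FPKM in CD and 261 FPKM in WD. Of 13 intervals, 2 lay above 1 (3.61% of all loci) and none below (3.82%). Of all loci with 20 to 99 fragments, where many of these markers lie, 6.75% had an interval that excludes 1 in either direction. Lyz2 was at 30.95 and 53.6 FPKM (35 and 58 fragments, 1.12 to 2.72) and Gpnmb, a marker of lipid-laden macrophages, at 7.89 and 14.3 FPKM (19 and 33 fragments, 1.003 to 3.38). Clec4f, which defines Kupffer cells, was at 16.7 and 18.5 FPKM (33 and 35 fragments), and C1qa and C1qb were the 2 lower members. In the light fraction 7 of the 14 were higher and the median was -0.002, with Lyz2 at 16.82 and 4.76 FPKM, and in the heavy fraction 10 were higher and the median was 0.31. The part of these cells in the interferon genes was not tested. No compared marker of neutrophils passed the filter. Endothelial markers had 8 higher and 6 lower of 14 and stellate cell and matrix markers 11 and 5 of 16. Of 6 red cell markers 5 were lower, with Hbb at 7 fragments in CD and listed at 0 in WD. In the light fraction 5 of the 6 were higher, Hbb at 13.95 and 242.4 FPKM and Hba1 at 18.04 and 162.6 FPKM, and in the heavy fraction 3 were higher. Of the pericentral markers, Lect2 was at 54.4 and 86.1 FPKM (39 and 59 fragments) and Glul, the glutamine synthetase, at 134.8 and 118.9 FPKM.

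**Figure D5:**
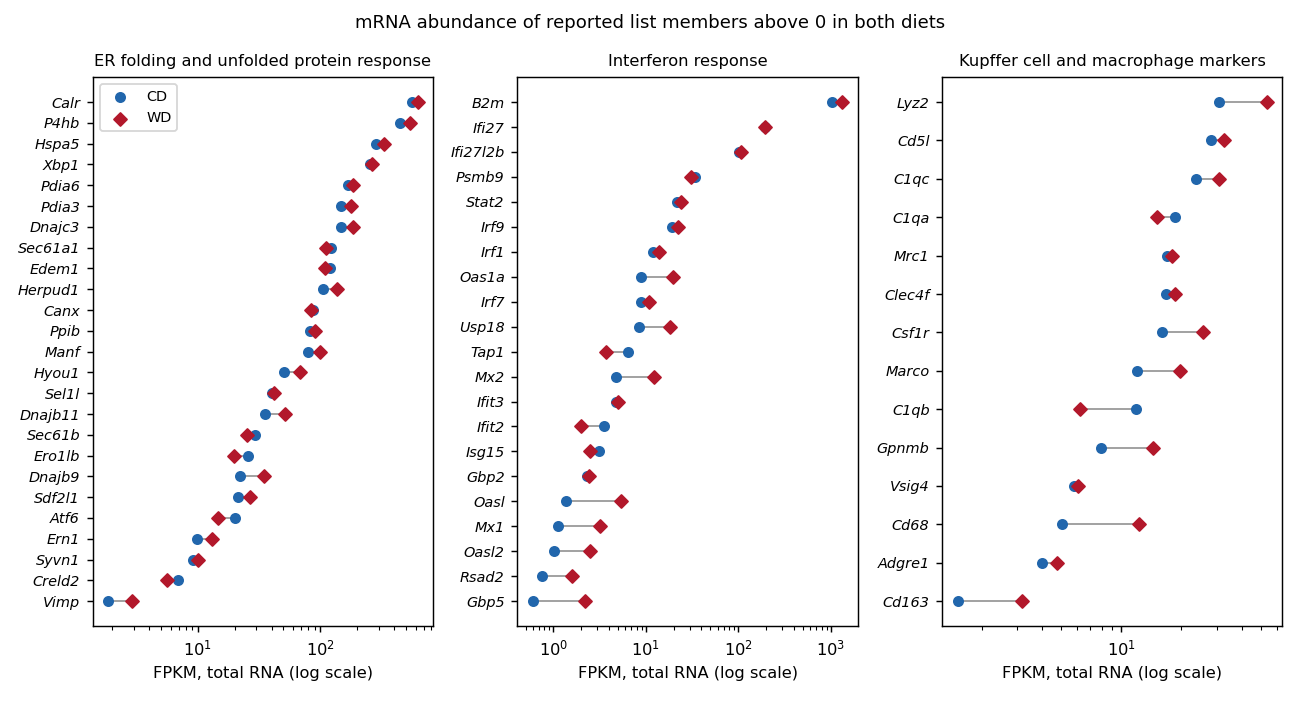
FPKM in total RNA of CD (circles) and WD (diamonds) is plotted on a log axis for the reported members above 0 in both diets of the lists of ER folding and unfolded protein response, interferon response, and Kupffer cell and macrophage markers. The ER genes shift a little to the right at high levels, whereas the wide gaps of Oasl, Mx1, Mx2 and Cd68 stand at low FPKM, where few fragments lie behind each point.

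Secreted defense proteins were near equal. The acute phase list had 11 higher and 12 lower of 23 genes (78.26% higher with equal sums), with Hp (haptoglobin) at 6170.6 and 6035.9 FPKM and Crp at 1592 and 1535.7 FPKM. Lbp, the lipopolysaccharide-binding protein, stood apart at 40.4 FPKM in CD and 75.9 FPKM in WD (103 and 185 fragments, 1.47 to 2.41). It was also higher in the heavy (79.6 and 124.1 FPKM) but not in the light fraction (20.1 and 16.4 FPKM). Cd14, its membrane partner, was at 7.59 and 16.5 FPKM (13 and 27 fragments, 1.08 to 4.58). In the complement and coagulation list, 24 of 35 were higher (85.71% with equal sums) with a median of 0.08, and C6, of the membrane attack complex, was the largest exception at 169.8 and 84.5 FPKM (544 and 259 fragments, 0.428 to 0.578). C6 was lower in the light (109.1 and 34.2 FPKM) and heavy (821 and 392.6 FPKM) fractions as well, whereas C9 was at 477.7 and 557.7 FPKM (1202 and 1342 fragments, 1.08 to 1.26).

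Nuclear receptors and hepatocyte transcription factors, taken as 1 list, held 15 higher and 13 lower of 28, with differences at both ends. Beside Onecut1, the pioneer factors Foxa1 and Foxa2 were lower, at 31.6 and 16.2 FPKM (51 and 25 fragments, 0.304 to 0.843) and at 7.35 and 2.26 FPKM (17 and 5 fragments, 0.0887 to 0.868), each lower in both fractions. Foxa3 was at 24.7 and 28.7 FPKM and Hnf4a at 365.9 and 420.5 FPKM. Prox1, a repressor of Hnf4a activity, was higher at 39.3 and 53.3 FPKM (316 and 410 fragments, 1.17 to 1.58). Klf15, a regulator of amino acid use, was at 14.5 and 23.4 FPKM (37 and 57 fragments) and Ahr, the dioxin receptor, at 10.3 and 15.7 FPKM (58 and 85 fragments). Of 22 intervals, those of Prox1, Klf15 and Ahr lay above 1 (3.61% of all loci) and 4 lay below (3.82%). Of all loci with at least 300 fragments, as Prox1 has, 31.3% had an interval that excludes 1 in either direction.

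Nitrogen handling differed at few genes. The urea cycle had 7 higher and 4 lower of 11 genes. Of its 10 intervals, 1 lay above 1 (3.61% of all loci) and none below (3.82%). It was that of Nags, which makes the cycle's activator N-acetylglutamate, at 17.4 and 27.3 FPKM (38 and 57 fragments, 1.02 to 2.43). In amino acid catabolism, 24 of 41 were higher and 17 lower, and 78.05% were higher with the libraries rescaled to equal sums. Gpt was at 40.9 and 17.8 FPKM (72 and 30 fragments) and Afmid, of tryptophan breakdown, at 37.5 and 21.0 FPKM (99 and 53 fragments). Bhmt, which remethylates homocysteine, was at 299.2 and 210.6 FPKM (569 and 383 fragments, 0.617 to 0.803). The 3 were lower in the heavy fraction too, while Gpt and Bhmt were higher in the light fraction. Among iron genes, the transferrin receptor Tfrc was at 8.77 and 13.2 FPKM (46 and 66 fragments, 1.01 to 2.24) and the iron sensor Aco1 at 49.3 and 34.7 FPKM (184 and 124 fragments, 0.557 to 0.890). Ferritin heavy chain Fth1 was at 502.1 and 424.6 FPKM (361 and 292 fragments). Hamp, the hepcidin gene, was among the 3 highest members with at least 20 fragments. The iron and heme list had 10 higher and 15 lower of 25 and a median of -0.12, and iron itself was not measured.

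The remaining lists are given by their counts. Sterol efflux, esterification and LXR targets had 8 higher and 6 lower of 14 and a median of 0.18, which is -0.02 over members with at least 20 fragments. Bile acid transport had 5 higher and 8 lower of 13, triglyceride synthesis 4 and 8 of 12 and retinoid metabolism 5 and 9 of 14. Phospholipid synthesis had 7 and 7 of 14, the cytoskeleton list 12 and 9 of 21 and cell cycle genes 7 and 5 of 12. Selenoproteins had 10 higher and 6 lower of 16 and inflammatory genes 15 and 8 of 23. The SREBP2 targets outside cholesterol synthesis had 4 higher and 7 lower of 11 and a median of -0.22. Among cell markers, periportal hepatocytes had 6 higher and 5 lower of 11, pericentral hepatocytes 6 and 5 of 11, lymphocytes 3 and 1 of 4 and adipocytes 3 and 0 of 3. Of the cholangiocyte markers, 2 were compared.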

How the data were processed

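Expression was measured by RNA sequencing of 6 pooled rat liver libraries, of which the 2 of total RNA were compared. Per the labels and the study's methods, ribosomal RNA was removed, no molecular identifiers are described, reads were aligned to Rnor_6.0 with TopHat and levels were estimated with Cufflinks and Cuffnorm on merged assemblies. The gene annotation is not given in the sources used here. The authors deposited FPKM per locus with a lower and an upper bound, and these FPKM values were used as deposited. The study's expression test was not rerun, since 1 library per diet allows no p-value for the diet.

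Ratios are WD over CD, and log2 changes were computed on FPKM + 0.1. Fragments were inferred as the smallest whole numbers that explain a locus's 6 values, within 0.01 of a fragment plus a share of 4e-05, with at most 600 fragments for the base value. The worth of a fragment in each library came from loci whose bounds mark 1 fragment. The numbers are estimates, since a multiple would give the same FPKM. Where no whole numbers were found, no interval is given, since the width of the bounds does not give the fragments of deep loci. The inference and the thresholds were tested on simulated data. A list symbol on several loci was taken at the most abundant, and symbols missing from the table were looked up as RefSeq synonyms. Overlapping and duplicated genes can share reads, and strand use in counting is not given in the sources used here.

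Named genes are the 15 highest and 15 lowest changes among loci averaging 10 FPKM or more in total RNA with at least 30 fragments, up to 3 genes at each end of a list with at least 20 fragments, the most abundant loci, and list members with a defining role. Members and lists were chosen with earlier results of these data known. Promoters and motif searches used RefSeq sequences of GRCr8. Python 3.11.15, numpy 2.4.6, pandas 2.3.3, scipy 1.17.1 and matplotlib 3.10.9 were used. Alternatives were other filters, pseudocounts, scalings, symbols on 1 locus, deeper loci, and a ratio of 0.75 for lower loci. Amplified reads without identifiers may copy 1 molecule, so intervals cover counting error only. A few list members are counted in their lists but not reported here by name.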

Additional observations from a re-analysis of the deposited data

Results flagged for a closer look

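Signal outside the loci compared was found in 2 places. The 864 loci without a symbol summed to 27957148.5 FPKM in CD and 31651854.2 FPKM in WD total RNA, 97.7% and 98.1% of the sum of all loci, and the 10 most abundant of them span 25 to 54 bases. Apob, the structural protein of very-low-density lipoproteins, was left out because its estimate failed in the WD light fraction. In total RNA it was at 1321.1 FPKM in CD and 1338.3 FPKM in WD. No group holds 4 or more samples, so no sample could be compared with its group.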

How the results depend on the processing

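The counts of loci at 1.5-fold depended on the filter, and their balance also on the scaling. Higher in WD were 1804 loci and lower 1738, against 2798 and 2628 when the mean had to reach 0.1 FPKM, 2957 and 2796 with no filter, 357 and 414 when it had to reach 10 FPKM, and 459 and 470 with at least 20 fragments. Fewer or more loci entered under each. Median centring moved the median of all loci by -0.022 and equal sums by 0.095 on the log2 scale. Equal sums gave 2087 higher and 1480 lower loci. Loci whose interval excludes 1 numbered 605, and 597, 667 and 506 under median centring, equal sums and at least 20 fragments, which were added after the data were seen. The share of list members higher in WD moved with equal sums to 78.05% in amino acid catabolism, 78.26% in acute phase and 85.71% in complement and coagulation. With at least 20 fragments it moved to 70% in acute phase, to 100.0% in cell cycle (2 genes left), and to 0% in fructose metabolism (4 genes left), hepatocyte markers (2 left) and red cell markers (1 left). With a mean of at least 10 FPKM it moved to 0% in cholesterol synthesis (9 genes left) and cell cycle (1 left). The other 230 shares computed under an alternative stayed inside the binomial interval of their own list. That interval is wide for short lists, 23.38% to 83.25% for the 11 glycogen genes, so staying inside it says little about stability. No paired analysis was possible because each diet and kind of RNA is 1 library, and no library could be left out. Depth limits the values, since the median of the 8149 loci with inferred fragments was 26. Some of the most abundant loci, such as Alb and Tf, have no inferred fragments and are not in that median or in the depth groups.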
